A study of Mus musculus with 14 samples.

Results

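Areg, Il1rl1, Klrg1, Tnfsf11, Penk, Gata3, Prdm1, Maf, Rora and Nfil3 are 10 genes known from effector regulatory T cells (Tregs) that settle in tissues and help repair them. They were taken by gene name from the 22255 gene rows that each library lists, and all 10 were found. The set and the lists of other genes below were chosen with earlier results of these data known. Their counts beside shares of all genes are therefore a description. RNA sequencing libraries from Foxp3-YFP+ Tregs of mice labelled as 8 weeks old asked how the expression program of Tregs differs between tumor, lymph node and spleen, and between 2 genotypes in the tumor. The KO tumor group (n = 3, replicates 1 to 3) held Tregs that had infiltrated Yumm1.7 melanoma, a mouse melanoma line, in mice of the strain CD36floxed FoxP3-YFPCre+/-, labelled CD36 KO. The WT tumor group (n = 3, replicates 2 to 4) held Tregs from the same melanoma in FoxP3-YFPCre+/+ mice. The lymph node (LN, n = 4) and spleen (n = 4) groups came from the same FoxP3-YFPCre+/+ strain. YFP and Cre are thus driven from Foxp3 in every group, controls included, and Cd36 is floxed in the KO tumor group only. That group is also labelled +/- for the Cre allele where the others are labelled +/+, so the floxed gene and the Cre genotype cannot be told apart. The labels do not say whether the LN and spleen donors carried tumors, or whether replicates were separate mice, so the p-values below measure the spread between these libraries, which may be technical.

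Tregs are the CD4 T cells under the control of Foxp3 that hold other immune cells in check. In skin, muscle, fat and gut a part of them carries the IL-33 receptor ST2 (encoded by Il1rl1) and the inhibitory receptor KLRG1, and releases amphiregulin (Areg), an EGF family ligand that is cut from the cell surface and acts on epithelial, stromal and muscle progenitor cells. GATA3, BLIMP1 (Prdm1), c-MAF (Maf), RORα (Rora) and NFIL3 are transcription factors known in effector or tissue Tregs. RANKL (Tnfsf11) is a TNF family ligand known for driving osteoclasts and lymphoid stroma, and Penk encodes proenkephalin, the precursor of opioid peptides.

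The stretches before the annotated starts of Areg and Rora are shown because these were the genes of the set that passed the test in tumor Tregs against both LN and spleen. Both are from RefSeq, on GRCm38.p6, 250 bases each, ending at the base before the start. The Areg window is chr5:91139349-91139598, plus strand, and the Rora window is chr9:68653536-68653785, plus strand. Capitals mark matches to the motifs listed after them.
Areg: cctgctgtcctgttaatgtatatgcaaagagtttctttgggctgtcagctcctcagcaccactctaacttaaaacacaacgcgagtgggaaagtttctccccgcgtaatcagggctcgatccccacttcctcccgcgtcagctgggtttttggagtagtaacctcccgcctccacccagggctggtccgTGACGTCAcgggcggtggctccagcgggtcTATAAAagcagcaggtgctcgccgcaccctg
Rora: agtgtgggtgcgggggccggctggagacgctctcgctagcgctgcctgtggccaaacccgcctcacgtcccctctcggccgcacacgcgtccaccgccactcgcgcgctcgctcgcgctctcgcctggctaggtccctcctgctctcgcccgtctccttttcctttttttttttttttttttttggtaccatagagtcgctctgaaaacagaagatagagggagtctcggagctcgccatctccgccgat

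The search covered both strands for 7 motifs. The cyclic AMP response element (CRE) was searched as TGACGTCA. The motif of AP-1, the Fos and Jun dimer, was spelled TGANTCA. For GATA factors the letters were AGATAA. NFIL3 sites were taken as TTANGTAA. The core of the site of ROR receptors was AGGTCA. The TATA box was spelled TATAAA, and the kB consensus of NF-kB was searched under that name. The Areg window held a CRE from position -61 to -54 and a TATA box from -31 to -26, counted from the start, and the Rora window held none of the 7 motifs. A CRE stood in 1.55% of all 32851 RefSeq windows of that length and a TATA box in 12.4%. RefSeq gave 8 windows for 7 of the 10 genes. Among the others, Tnfsf11 had a TATA box at -32 to -27, Prdm1 an AP-1 match at -48 to -42 and Nfil3 a ROR match at -12 to -7. The distal Il1rl1 start had a GATA match at -217 to -212, and the proximal one a ROR match at -185 to -180 and a GATA match at -103 to -98. AP-1 stood in 6.75%, GATA in 9.99% and ROR in 14% of all windows. A match is a string of letters and shows no binding, and a window without one shows only that the letters are absent there.

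**Figure D1:**
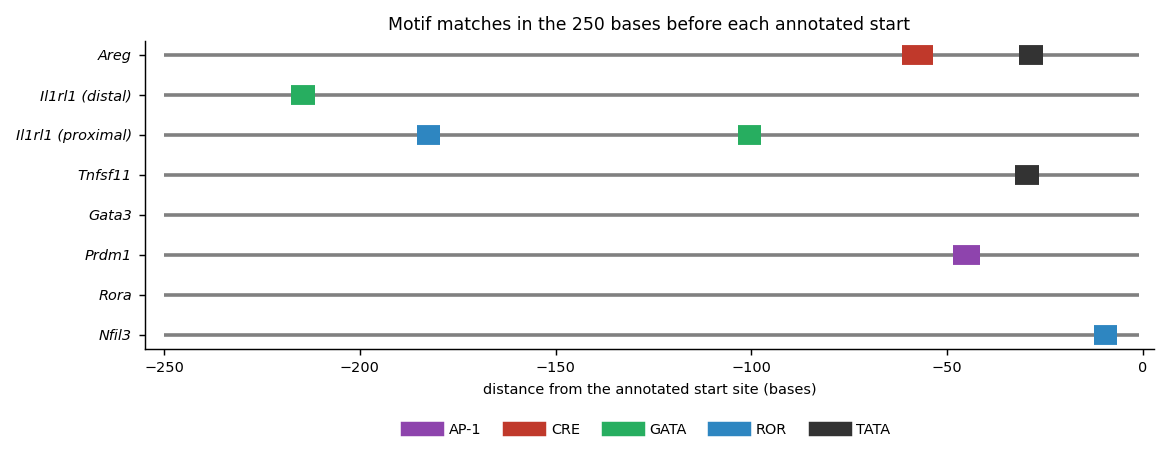
Motif matches in the 250 bases before the annotated start of 7 genes (8 windows, 1 line each), with distance from the start in bases on the x axis and 1 color a motif. The CRE of Areg, at -61 to -54, is the only CRE match in the 8 windows, and the Gata3 and Rora windows hold no match.

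The authors deposited FPKM values, which are fragment numbers scaled to transcript length and library size. The steps between low values put the depth at 10.7 to 21.4 M reads per library (M, mega), and 7469 to 8307 genes per library reached 1 FPKM. All 9 Treg markers were above 0 in every group, with sums of 2713 to 4124 FPKM in KO tumor, 3232 to 4161 in WT tumor, 2819 to 3208 in LN and 2522 to 3140 FPKM in spleen. The largest parts were Cd3g (group means of 1367 to 1996 FPKM) and Cd3d (811 to 1046 FPKM). Both are genes of T cells in general, so the sums do not single out Tregs. Foxp3 itself stood at 25.7 to 42.4 FPKM in KO tumor, 3.54 to 12 in WT tumor, 15.4 to 32.3 in LN and 8.67 to 27.8 FPKM in spleen, with no call in any comparison. Cd36, the targeted gene, was listed at 0 in 2 of 3 KO tumor libraries (1.06 FPKM in the other), in all WT tumor and LN libraries, and in 1 of 4 spleen libraries (up to 4.47 FPKM), so its loss cannot be read from these values. Exons of 4 of the 10 genes (Gata3, Maf, Penk and Rora) share bases with an annotated gene that has no row here, Gata3 on both strands and the others on the opposite strand. Reads there cannot be told apart, since the labels state no strand. Macrophage or monocyte markers summed to 349 to 453 FPKM in KO tumor, 32.1 to 137 in WT tumor, 7.28 to 36.8 in LN and 275 to 720 FPKM in spleen. Ccr2 is 1 of these markers and is also listed below as an effector Treg gene. It had 38.0 to 42.7 FPKM in KO tumor, 24.5 to 30.9 in WT tumor, 0.709 to 11.5 in LN and 3.11 to 9.32 in spleen.

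Tumor Tregs stood apart from lymphoid Tregs in a part of the set. In WT tumor Tregs against LN Tregs, 5 of the 10 genes rose, Areg, Nfil3, Klrg1, Rora and Gata3, and against spleen Tregs 2 rose, Areg and Rora. None fell. Across all genes tested, 1.89% rose in WT tumor against LN and 1.2% against spleen (limma, adjusted p of 0.05 over 9616 genes, 292 and 183 calls in either direction, 3.04% and 1.9%). The median log2 difference of the 10 genes was 1.79 against LN, beside -0.12 for all genes, and 1.45 against spleen, beside -0.07 for all genes. All libraries of WT tumor lay above all LN libraries in 7 of the 10 genes, as in 8.02% of all genes, and above all spleen libraries in 7, as in 5.73% of all genes. In bulk RNA, more cells of the effector type and more RNA of these genes per cell cannot be told apart.

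KO tumor Tregs were set against the lymphoid groups too, where tissue and genotype differ together and cannot be told apart. Here 4 of the 10 genes rose against LN, Areg, Rora, Nfil3 and Klrg1, where 2.11% of 10147 genes rose (3.42% called in either direction). Macrophage or monocyte markers moved with this comparison, at 349 to 453 FPKM in KO tumor and 7.28 to 36.8 FPKM in LN, as did markers of B cells or plasma cells, at 150 to 1143 FPKM in KO tumor and 43.5 to 66.3 FPKM in LN, and their part was not tested. Areg and Rora rose against spleen, where 1.64% of all genes rose (2.8% called in either direction). All KO tumor libraries lay above all LN libraries in 8 of the 10 genes, as in 8.83% of all genes, and above all spleen libraries in 6, as in 7.05% of all genes. The comparisons of the 2 tumor groups share the LN and spleen libraries, so their values stand side by side and their likeness is no result. In 4 of the 10 genes, Areg, Maf, Rora and Nfil3, all 6 tumor libraries lay above all 8 lymphoid libraries, and 1.8% of all genes had this pattern. The differences that were called and those that were not can be read together from the plot of log2 differences.

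**Figure D2:**
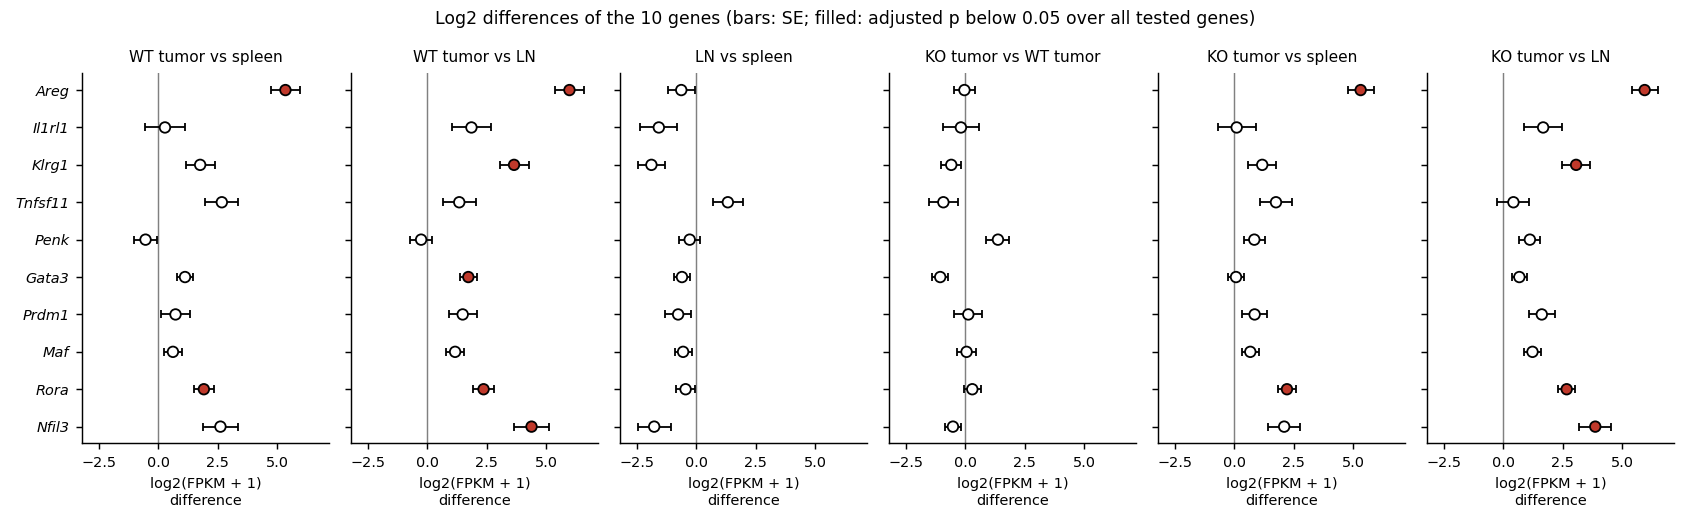
Log2(FPKM + 1) differences of the 10 genes (rows) in 6 comparisons (panels), with the standard error as bar and filled points for adjusted p below 0.05. Areg lies farthest to the right in all 4 comparisons of tumor with lymphoid Tregs, at 5.32 to 5.98, no gene is called for KO tumor against WT tumor or LN against spleen, and Penk is the only gene left of 0 for WT tumor against LN and spleen.

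Among the ligands, Areg (chromosome 5, 91139599 to 91148432, GRCm38) had the widest contrast of the set. It had 53.3, 73.5 and 72.3 FPKM in KO tumor 1 to 3 and 102, 35.8 and 83.1 FPKM in WT tumor 2 to 4. It was listed at 0 in LN 1, 2 and 3, with 0.359 FPKM in LN 4, and had 0.998, 0.335, 0 and 1.94 FPKM in spleen 1 to 4. Every tumor library lay above every lymphoid library, and the tumor groups overlapped. In reads, estimated over its single 1215-base transcript, this came to 1082 to 1502 in KO tumor, 583 to 1458 in WT tumor, 0 to 8 in LN and 0 to 27 in spleen. Multiples of a depth give whole reads too, and the smallest depth was taken, so the reads behind a value may be more than these. Over the 14 libraries 3 reads would give 0.115 to 0.231 FPKM, so lower levels could not be seen at this depth, and this limit covers counting error only.

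The log2(FPKM + 1) difference of Areg was 5.98 ± 0.61 for WT tumor against LN (limma, adjusted p = 0.000105) and 5.35 ± 0.61 against spleen (adjusted p = 0.000724). For KO tumor it was 5.95 ± 0.54 against LN (adjusted p = 1.5e-05) and 5.32 ± 0.54 against spleen (adjusted p = 6.63e-05). The added 1 FPKM understates differences of genes near 0: with 0.1 FPKM added instead, WT tumor differed from LN by 8.85 and from spleen by 6.92. Areg reached 1 FPKM in 1 of the 8 lymphoid libraries, so it passed the filter on low values through the tumor libraries. Its tests therefore describe the values and are no support. The 4 calls of Areg held in every alternative run, no filter included. Over these runs limma's adjusted p went from 3.17e-06 (KO tumor against LN) to 0.013 (WT tumor against spleen). By level, Areg stood at percentile 92.9 of the genes above 0 in KO tumor and 93.1 in WT tumor, against 13.3 in LN and 29.2 in spleen.

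Tnfsf11 (RANKL; chromosome 14, 78277445 to 78308043) had 7.22, 10.4 and 22.6 FPKM in KO tumor 1 to 3, 34.7, 18.3 and 20.9 FPKM in WT tumor 2 to 4, 9.36, 12.3, 7.07 and 6.95 FPKM in LN 1 to 4, and 3.42, 0.727, 13.2 and 1.05 FPKM in spleen 1 to 4. WT tumor libraries lay above all LN and spleen libraries, while KO tumor overlapped with every other group. The difference of 2.68 ± 0.70 for WT tumor against spleen missed the threshold (adjusted p = 0.0743), as did 1.75 ± 0.67 for KO tumor against spleen (adjusted p = 0.230). Against LN the differences were 1.35 ± 0.70 for WT tumor (adjusted p = 0.373) and 0.43 ± 0.67 for KO tumor (adjusted p = 0.882). Spleen 3, the highest spleen library, decided both comparisons with spleen: without it they were 3.30 (adjusted p = 0.0201) and 2.38 (adjusted p = 0.0438). It was also the only gene of the set with a higher mean in LN (8.93 ± 2.53 FPKM, SD, n = 4) than in spleen (4.60 ± 5.85 FPKM, SD, n = 4), a difference of 1.33 ± 0.64 that missed the threshold (adjusted p = 0.504).

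Penk (proenkephalin; chromosome 4, 4133531 to 4138819) was the highest of the 10 genes in KO tumor, LN and spleen, and its FPKM values did not follow the tumor. It had 282, 295 and 195 FPKM in KO tumor 1 to 3, 102, 196 and 45.4 FPKM in WT tumor 2 to 4, 181, 57.0, 160 and 110 FPKM in LN 1 to 4, and 153, 105, 178 and 138 FPKM in spleen 1 to 4. KO tumor lay above LN and spleen, and its lowest library, at 195 FPKM, stood just under the highest WT tumor library, at 196 FPKM. WT tumor differed by -0.26 ± 0.47 from LN (adjusted p = 0.846) and by -0.53 ± 0.47 from spleen (adjusted p = 0.663). KO tumor against LN gave 1.12 ± 0.44 (adjusted p = 0.254) and against spleen 0.84 ± 0.44 (adjusted p = 0.428).

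**Figure D3:**
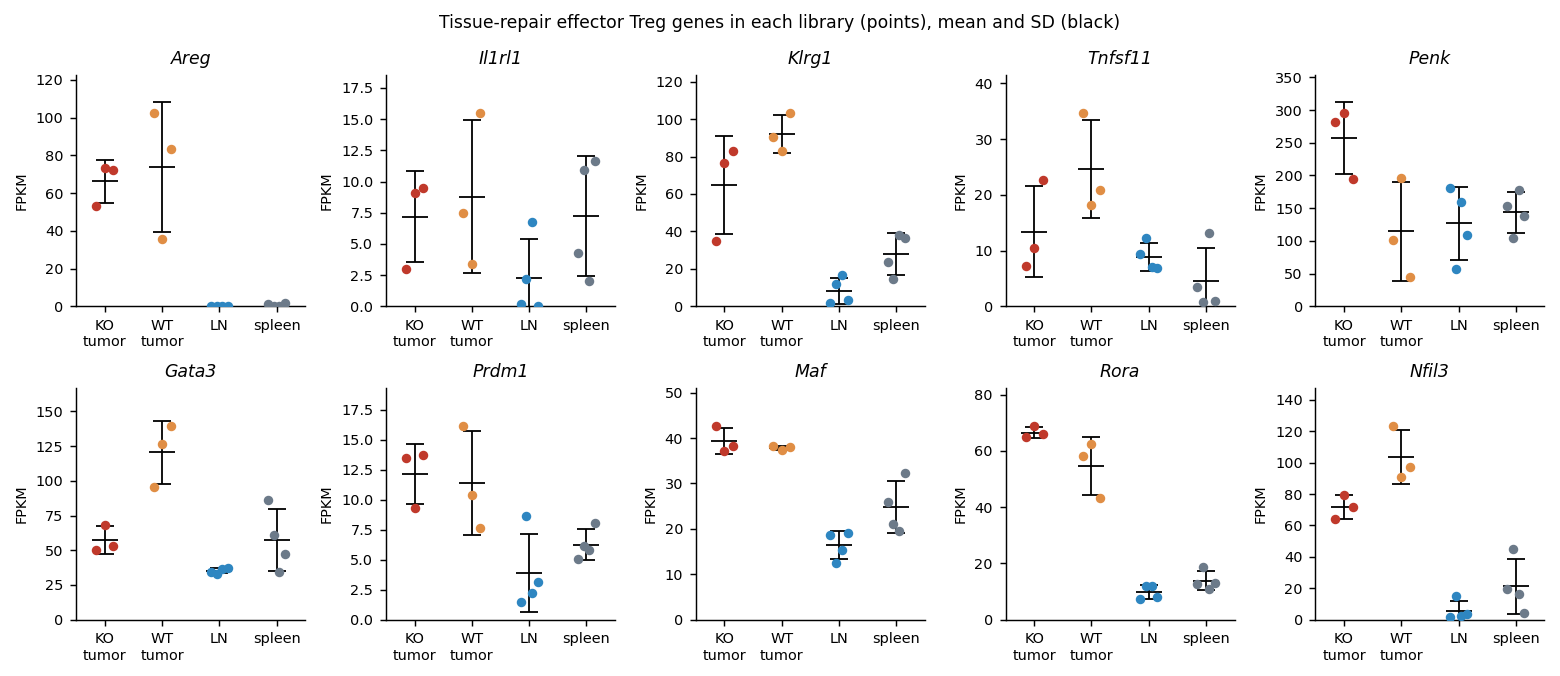
FPKM of the 10 genes in each library (points), by group, with mean and SD in black where no library of the group is listed at 0, and bars cut off at 0 FPKM. Areg is near 0 in LN and spleen and at 35.8 to 102 FPKM in the tumor groups, while Penk, Il1rl1 and Prdm1 overlap between WT tumor and both lymphoid groups.

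Of the receptors, Il1rl1 (ST2; chromosome 1, 40429570 to 40465415) was low and uneven. It averaged 7.18 ± 3.66 FPKM in KO tumor and 8.79 ± 6.14 FPKM in WT tumor (SD, n = 3 each), against 2.29 ± 3.14 FPKM in LN and 7.22 ± 4.82 FPKM in spleen (SD, n = 4 each). Single libraries ran from 2.96 to 9.47 FPKM in KO tumor, 3.41 to 15.5 in WT tumor, 0.0239 to 6.77 in LN and 2.0 to 11.7 FPKM in spleen, so all groups overlapped. Tumor and spleen Tregs therefore did not differ beyond their spread in this gene, with a difference of 0.28 ± 0.84 for WT tumor (adjusted p = 0.915), whose 95% interval ran from -1.51 to 2.08. Against LN the difference was 1.86 ± 0.84 (adjusted p = 0.30). For KO tumor it was 1.68 ± 0.80 against LN (adjusted p = 0.392) and 0.10 ± 0.80 against spleen (adjusted p = 0.980). Il1rl1 is known to make a membrane-bound and a soluble receptor, and these gene totals do not separate its 5 annotated transcripts.

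Klrg1 (chromosome 6, 122270596 to 122282882) encodes a lectin-like receptor for cadherins. It had 34.9, 76.8 and 83.0 FPKM in KO tumor 1 to 3, 90.2, 83.1 and 103 FPKM in WT tumor 2 to 4, 1.96, 11.9, 16.5 and 3.43 FPKM in LN 1 to 4, and 23.7, 14.4, 37.9 and 36.7 FPKM in spleen 1 to 4. The WT tumor libraries lay above all others, with 83.1 FPKM in the lowest of them and 83.0 FPKM in the highest KO tumor library. Klrg1 rose by 3.65 ± 0.61 in WT tumor against LN (adjusted p = 0.0042) and by 3.06 ± 0.59 in KO tumor against LN (adjusted p = 0.00642). Against spleen the differences were 1.77 ± 0.61 for WT tumor (adjusted p = 0.185) and 1.18 ± 0.59 for KO tumor (adjusted p = 0.394). CD8 T cell or NK cell markers, a class that can carry KLRG1, summed to 37.6 to 108 FPKM in KO tumor, 60.6 to 198 in WT tumor, 0.172 to 93.8 in LN and 8.02 to 114 FPKM in spleen. In the tumor groups the largest parts were Gzma (means of 48.7 FPKM in KO tumor and 67.8 in WT tumor) and Cd8b1 (16.2 and 40.2 FPKM). Cd8a reached at most 1.72 FPKM in KO tumor and 1.57 in WT tumor, against 7.24 in spleen, and Ncr1 was at 0 in both tumor groups. Eomes reached 0.205, 0.202 and 6.77 FPKM in the same 3 groups. Klrb1c went the other way, with up to 12.2 FPKM in KO tumor, 7.15 in WT tumor, 5.53 in spleen and 0 in LN. Klre1 was above 0 only in tumor, up to 1.15 FPKM. Prf1 reached 7.95 FPKM in KO tumor, 3.01 in WT tumor, 6.61 in LN and 11.2 in spleen. The part of such cells in Klrg1 was not tested.

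Among the transcription factors, Rora (chromosome 9, 68653786 to 69388246), a nuclear receptor, had 65.0, 68.7 and 65.8 FPKM in KO tumor 1 to 3 and 58.3, 62.6 and 43.1 FPKM in WT tumor 2 to 4. It had 7.36, 12, 12.1 and 7.94 FPKM in LN 1 to 4 and 12.6, 18.7, 10.9 and 13.1 FPKM in spleen 1 to 4. The order was KO tumor, WT tumor, spleen and LN, and only spleen and LN overlapped. Rora rose in WT tumor by 2.37 ± 0.43 against LN (adjusted p = 0.00676) and by 1.92 ± 0.43 against spleen (adjusted p = 0.0344), and in KO tumor by 2.67 ± 0.37 against LN (adjusted p = 0.000581) and by 2.22 ± 0.37 against spleen (adjusted p = 0.00281).

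The call of Rora for WT tumor against spleen was close to the threshold. It was lost when any library but spleen 2 was left out: adjusted p was 0.068 without spleen 1, 0.0757 without spleen 3 and 0.0615 without spleen 4. It was 0.0989, 0.107 and 0.0633 without WT tumor 2, 3 and 4. The difference itself stayed between 1.82 and 2.08.

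Nfil3 (chromosome 13, 52967209 to 52981073), a basic leucine zipper factor, had 64.2, 79.4 and 71.5 FPKM in KO tumor 1 to 3 and 123, 90.8 and 97.3 FPKM in WT tumor 2 to 4. It had 1.46, 15.2, 2.23 and 3.71 FPKM in LN 1 to 4 and 19.2, 45.1, 16.1 and 4.13 FPKM in spleen 1 to 4. The tumor libraries lay above all lymphoid ones, and the KO tumor libraries lay between WT tumor and spleen. Nfil3 rose by 4.39 ± 0.75 in WT tumor against LN (adjusted p = 0.00481) and by 3.87 ± 0.68 in KO tumor against LN (adjusted p = 0.00367). Against spleen, whose libraries spread widely, the differences of 2.62 ± 0.75 for WT tumor (adjusted p = 0.110) and 2.1 ± 0.68 for KO tumor (adjusted p = 0.135) missed the threshold.

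Gata3 (chromosome 2, 9857078 to 9890034), known for type 2 helper T cells and for tissue Tregs, had 49.9, 68.5 and 53.4 FPKM in KO tumor 1 to 3 and 95.6, 127 and 139 FPKM in WT tumor 2 to 4. It had 34.2, 33.0, 36.4 and 37.2 FPKM in LN 1 to 4, and 86.2, 60.9, 34.1 and 47.0 FPKM in spleen 1 to 4. WT tumor lay above every other library, and KO tumor overlapped with spleen and lay above LN. Gata3 rose by 1.73 ± 0.35 in WT tumor against LN (adjusted p = 0.0144), a call lost without WT tumor 3 (adjusted p = 0.0586) or WT tumor 4 (adjusted p = 0.0533). The other differences missed the threshold: 1.13 ± 0.35 for WT tumor against spleen (adjusted p = 0.137), 0.67 ± 0.33 for KO tumor against LN (adjusted p = 0.406) and 0.07 ± 0.33 for KO tumor against spleen (adjusted p = 0.955).

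Maf (chromosome 8, 115682942 to 115707794) had close values in all tumor libraries: 42.5, 37.2 and 38.3 FPKM in KO tumor 1 to 3 and 38.2, 37.3 and 37.9 FPKM in WT tumor 2 to 4. It had 18.7, 12.6, 15.3 and 19.1 FPKM in LN 1 to 4 and 25.9, 21.2, 19.5 and 32.3 FPKM in spleen 1 to 4. The tumor groups overlapped, spleen lay below them and LN lay below spleen. No difference passed the test: it was 1.17 ± 0.38 for WT tumor against LN (adjusted p = 0.137), 0.62 ± 0.38 against spleen (adjusted p = 0.510), 1.23 ± 0.35 for KO tumor against LN (adjusted p = 0.0691) and 0.67 ± 0.35 against spleen (adjusted p = 0.413). KO tumor against LN passed with no filter on low values (adjusted p = 0.0185) and with quality weights for the libraries (adjusted p = 0.0306).

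Prdm1 (BLIMP1; chromosome 10, 44437177 to 44528501) was lower. It averaged 12.1 ± 2.46 FPKM in KO tumor and 11.4 ± 4.32 FPKM in WT tumor (SD, n = 3 each), against 3.87 ± 3.25 FPKM in LN and 6.25 ± 1.30 FPKM in spleen (SD, n = 4 each). Libraries ran from 9.30 to 13.7 FPKM in KO tumor, 7.62 to 16.1 in WT tumor, 1.49 to 8.64 in LN and 5.04 to 8.08 FPKM in spleen. WT tumor overlapped with both lymphoid groups and KO tumor with neither. The differences were 1.49 ± 0.59 for WT tumor against LN (adjusted p = 0.233) and 0.73 ± 0.59 against spleen (adjusted p = 0.628), and 1.62 ± 0.54 for KO tumor against LN (adjusted p = 0.148) and 0.86 ± 0.54 against spleen (adjusted p = 0.530).

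Between the tumor groups, which differ in genotype within the same melanoma, none of the 10 genes passed limma's test (23 of 8210 genes called, 0.28%). The median difference of the set was -0.11, beside 0.07 for all genes. Penk was highest relative to WT tumor, with 257 ± 54.5 FPKM in KO tumor and 114 ± 76.1 FPKM in WT tumor (SD, n = 3 each), a difference of 1.38 ± 0.48 (adjusted p = 0.432, 95% interval 0.29 to 2.46). Gata3 was lowest, with 57.3 ± 9.87 FPKM in KO tumor and 120 ± 22.4 FPKM in WT tumor, a difference of -1.06 ± 0.34 (adjusted p = 0.369, interval -1.82 to -0.29). These were the 2 genes of the set with an unadjusted p below 0.05, a share that 8.64% of all genes tested reached.

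The groups did not overlap in 4 of the 10 genes: Klrg1, Gata3 and Nfil3 were lower in every KO tumor library than in every WT tumor library, and Rora was higher. Across all genes 6.93% were lower and 7.54% higher in this way. Klrg1 differed by -0.59 ± 0.41 (interval -1.52 to 0.34), Nfil3 by -0.52 ± 0.32 (interval -1.24 to 0.21) and Rora by 0.30 ± 0.36 (interval -0.51 to 1.10). Tnfsf11 differed by -0.92 ± 0.60 (interval -2.28 to 0.43). The intervals of Areg, from -1.06 to 0.99, of Maf, from -0.83 to 0.94, of Prdm1, from -1.19 to 1.45, and of Il1rl1, from -1.90 to 1.54, lie on both sides of 0 and do not show that the groups are alike. Macrophage or monocyte markers, at 349 to 453 FPKM in KO tumor and 32.1 to 137 FPKM in WT tumor, moved with this comparison. Ccr2, also listed below as an effector Treg gene, gave 24.5 to 30.9 FPKM of the WT tumor sums. Markers of B cells or plasma cells moved with the comparison too, at 150 to 1143 FPKM in KO tumor and 6.84 to 98.4 FPKM in WT tumor. The part of these cells in the 10 genes was not tested.

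LN Tregs against spleen Tregs gave no call among the 10 genes in limma's test (48 of 9616 genes called, 0.499%). Differences of 9 of the 10 genes were below 0, with a median of -0.62 beside 0.02 for all genes, and the unadjusted p was below 0.05 for Klrg1 (-1.89 ± 0.57, adjusted p = 0.210) and Nfil3 (-1.77 ± 0.69, adjusted p = 0.365), a share that 10.4% of all genes reached. Il1rl1 differed by -1.58 ± 0.77, Prdm1 by -0.76 ± 0.55, Areg by -0.63 ± 0.57, Gata3 by -0.60 ± 0.32, Maf by -0.55 ± 0.36, Rora by -0.45 ± 0.39 and Penk by -0.28 ± 0.44, with adjusted p from 0.515 to 0.898. Maf alone did not overlap, lower in LN, as were 4% of all genes. Its mean was 16.4 ± 3.08 FPKM in LN and 24.7 ± 5.73 FPKM in spleen (SD, n = 4 each). Macrophage or monocyte markers were lower in LN (7.28 to 36.8 FPKM) than in spleen (275 to 720 FPKM), and their part was not tested.

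The genes around these ligands and receptors were mostly low or did not pass. Of the EGF family list of 11 genes, 3 could be tested and none passed in any comparison. Adam17, the sheddase that releases amphiregulin, ran from 6.18 to 15.8 FPKM in KO tumor, 4.96 to 9.94 in WT tumor, 5.91 to 16.2 in LN and 6.88 to 23.9 FPKM in spleen, and Egfr, its receptor, was listed at 0 in 12 of 14 libraries. Of 14 IL-33 receptor signalling genes, 11 were tested against LN and spleen and none passed. Il33 itself was listed at 0 in every library, and Il1rap, the partner chain of ST2, stayed at or below 3.13 FPKM. The RANKL pathway (4 of 6 genes tested) and the KLRG1 list (3 of 6 tested) gave no call either. Tnfrsf11a, the RANKL receptor, reached at most 0.0348 FPKM in these cells.

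Of the opioid list of 9 genes, Furin, a precursor-cleaving protease, rose in WT tumor against LN by 2.41 ± 0.50 (adjusted p = 0.0179), with 27.7 ± 11.2 FPKM in WT tumor (SD, n = 3) and 4.30 ± 1.46 FPKM in LN (SD, n = 4). Pcsk1, a convertase that cuts prohormones, passed the filter through the KO tumor libraries, so its test is not given. It had 2.09 to 10.2 FPKM in KO tumor and 0 to 2.1 FPKM in WT tumor and was listed at 0 in every LN and spleen library. Of 16 partners and relatives of the 5 transcription factors, 11 could be tested against LN and spleen and none passed. Gata2 was listed at 0 throughout.

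Of a further 35 genes known from tissue and effector Tregs, 34 were tested against LN and spleen. In WT tumor 13 of them rose against LN and 9 against spleen, where 1.89% and 1.2% of all genes rose. In KO tumor 17 rose against LN and 16 against spleen, where 2.11% and 1.64% of all genes rose. None of the 34 fell. Ctla4, Ikzf2 and Tnfrsf18 of this list are also among the Treg markers and Ccr2 among the macrophage markers. The median difference of the list in WT tumor was 1.28 against LN and 1.34 against spleen. Among them were Tnfrsf9, the costimulatory receptor 4-1BB, at 309 ± 3.59 FPKM in WT tumor (SD, n = 3) and 42.4 ± 5.05 FPKM in LN (SD, n = 4), and Id2, an inhibitor of E proteins, at 454 ± 82.2 FPKM in WT tumor and 79.3 ± 5.41 FPKM in LN. Icos rose in WT tumor against spleen by 1.38 ± 0.20 (adjusted p = 0.00273). Bhlhe40, a transcriptional repressor, rose in KO tumor against LN by 4.74 ± 0.63 (adjusted p = 0.000404).

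The 15 resting Treg genes went the other way in part. In WT tumor 4 fell against LN and 3 against spleen, where 3.04% and 1.9% of all genes were called in either direction. In KO tumor 4 fell against LN and 3 against spleen, where 3.42% and 2.8% of all genes were called in either direction. Id3, which holds E proteins in check in resting cells, stood at 4.75 ± 7.83 FPKM in WT tumor (SD, n = 3) and 147 ± 53.6 FPKM in LN (SD, n = 4), and Bcl2, a survival factor, at 8.64 ± 4.26 FPKM in WT tumor and 51.8 ± 5.27 FPKM in LN. Klf2, a factor of recirculating T cells, was the exception and rose in WT tumor against LN (1.70 ± 0.26, adjusted p = 0.00205) and spleen (1.64 ± 0.26, adjusted p = 0.00527), and it fell in KO tumor against WT tumor (-1.31 ± 0.21, adjusted p = 0.0397), a call that was lost with no filter on low values, where 0 genes were called. No tissue and effector Treg gene passed between KO and WT tumor.

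**Figure D4:**
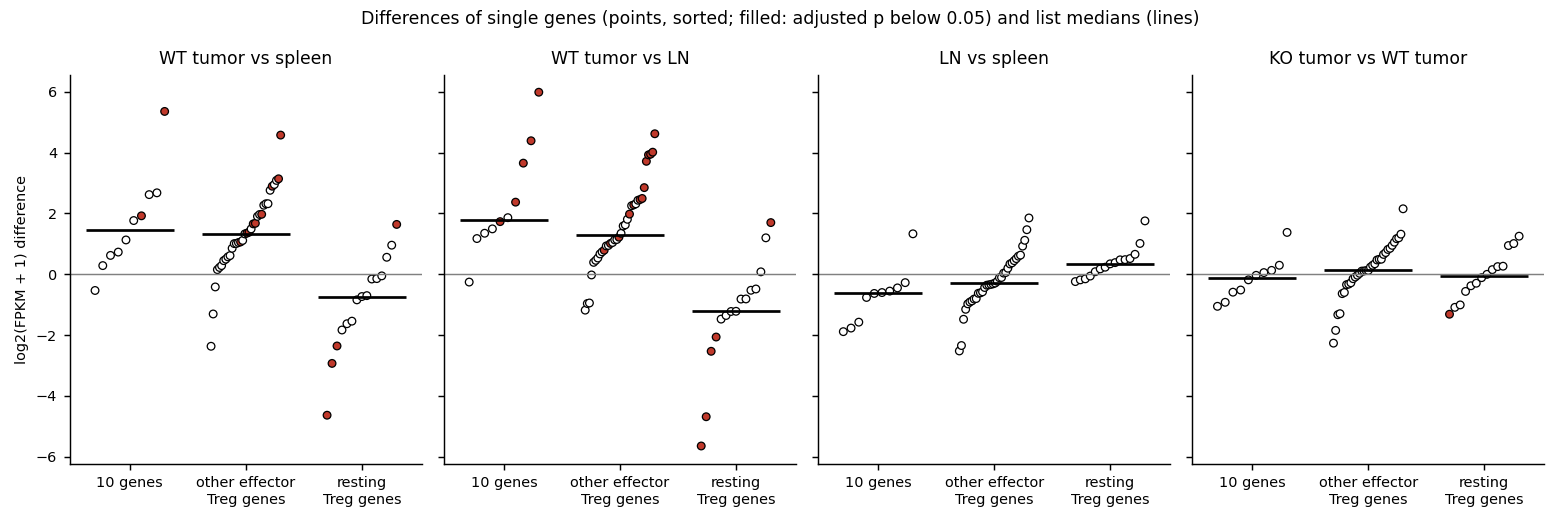
Log2(FPKM + 1) differences of single genes (points, sorted within a list, filled for adjusted p below 0.05) with list medians as lines, for the 10 genes, 34 other tissue and effector Treg genes (33 in the last panel) and 15 resting Treg genes (14 in the last panel). The medians of the 10 genes are 1.45 and 1.79 for WT tumor against spleen and LN, and -0.62 and -0.11 for LN against spleen and KO tumor against WT tumor.

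Early response genes, which stimulation and cell isolation are both known to induce, moved with the tumor comparisons. Of 12 tested, 10 rose in WT tumor against LN and 8 against spleen, where 1.89% and 1.2% of all genes rose. Of 13 tested in KO tumor 9 rose against LN and 6 against spleen, where 2.11% and 1.64% of all genes rose. Fosb, and Atf3 where tested, passed the filter on low values only through tumor libraries, so their tests are no support. Fosb reached at most 0.331 FPKM in LN and 0.862 in spleen, and Atf3 0 and 0.0673 FPKM. Sums of the early response list were 2190 to 2605 FPKM in KO tumor, 2951 to 4103 in WT tumor, 314 to 443 in LN and 613 to 814 FPKM in spleen. Fos stood at 637 ± 164 FPKM in WT tumor (SD, n = 3) and 4.53 ± 5.33 FPKM in LN (SD, n = 4), a difference of 7.39 ± 0.72 (adjusted p = 9.05e-05). Their part in the levels of the 10 genes was not tested. ILC2 and mast cells are other known sources of Areg, Il1rl1 and Gata3 transcripts. Of 8 ILC2 markers, Il13 and Il9 were at 0 in every library. Il5 reached 21.5 FPKM in KO tumor and 0.0968 in WT tumor and was at 0 in all LN and spleen libraries. Il17rb went the other way, with 1.67 to 29.1 FPKM in LN and 0 in WT tumor. It reached at most 0.141 FPKM in KO tumor and 1.89 in spleen. Sums of the list ran from 0.30 to 25.0 FPKM in KO tumor and 0.0200 to 2.30 FPKM in WT tumor. In LN they ran from 1.68 to 29.1 FPKM and in spleen from 0.0672 to 4.96 FPKM. Mast cell or basophil markers summed to at most 1.32 FPKM in KO tumor, 2.01 in WT tumor, 1.70 in LN and 2.57 FPKM in spleen, with Mcpt4, Mcpt8, Tpsb2, Tpsab1, Cma1, Fcer1a and Gata2 at 0 in every library. The highest ILC2 sum of a tumor library, 25.0 FPKM, was in KO tumor 2, where Areg stood at 73.5 FPKM. The part of either cell type in the 10 genes was not tested.

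**Figure D5:**
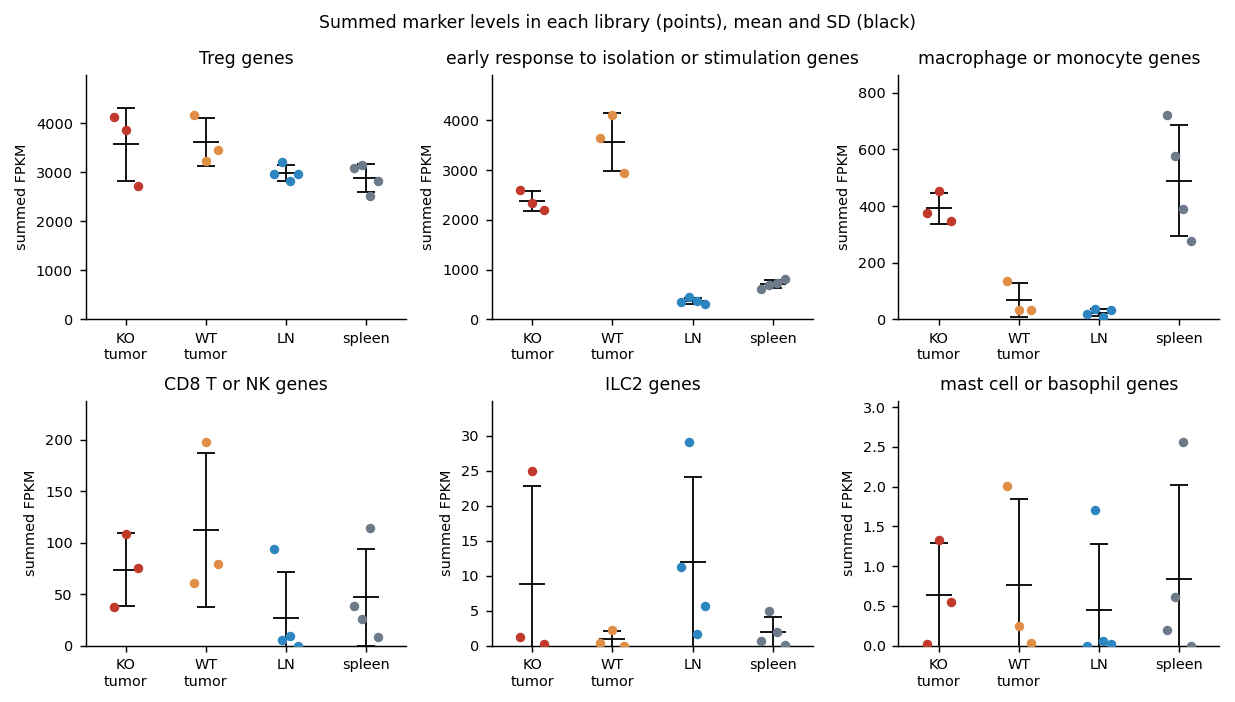
Summed FPKM of 6 marker lists in each library (points), by group, with mean and SD in black and bars cut off at 0 FPKM. Early response sums are higher in both tumor groups (2190 to 4103 FPKM) than in LN and spleen (314 to 814 FPKM), and macrophage or monocyte sums are higher in KO tumor and spleen than in WT tumor and LN.

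The genes whose pattern over the 14 libraries was most like each of the 10, by Pearson r of log2(FPKM + 1) among 10147 genes, are given as a description, since the libraries of a group share tissue and genotype. Areg was most like Fosb (r = 0.974), Fos (0.971) and the phosphatase gene Dusp14 (0.964), and Rora most like the zinc finger gene Klf6 (0.958), Sdf4 (0.957) and Areg (0.954). Maf was most like Dgat1, a triglyceride synthesis enzyme (0.962), which had 208 FPKM in KO tumor, 202 in WT tumor, 11.8 in LN and 44.7 FPKM in spleen on average. Prdm1 was most like Cpm (0.941), Nfil3 most like the oxysterol receptor gene Gpr183 (0.938), Klrg1 most like Nrip1 (0.901) and Gata3 most like Ubxn1 (0.903). For Tnfsf11 the nearest was Txndc12 (0.894), for Il1rl1 Pkp3 (0.869) and for Penk E430025E21Rik (0.826). Among the 10 genes, r was highest for Areg with Rora (0.954), followed by Areg with Maf (0.899) and Rora with Nfil3 (0.887). With Penk none of the other 9 went above 0.310, and Tnfsf11 with Il1rl1 gave -0.08.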

How the data were processed

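FPKM values for 22255 genes in each of 14 Smart-Seq2 libraries were deposited by the authors as 1 table per library. Per the submitters' processing notes, the genome was mm10 (GRCm38) and the tools included Cufflinks 2.2.1 with Cuffdiff, Bowtie2 2.2.9, DESeq2, TopHat2 2.1.1 and Trimmomatic. None was rerun. Of the gene IDs, 22196 matched GENCODE M21, which gave positions and transcript lengths.

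Genes with at least 1 FPKM in 3 libraries of a fit were tested with robust limma-trend (limma 3.58.1, R 4.3.3) on log2(FPKM + 1), with Benjamini-Hochberg adjustment over all of them and a threshold of 0.05. All 10 genes passed this filter in every fit. The 11 spleen, LN and WT tumor libraries shared 1 fit (9616 genes), the 6 tumor libraries another (8210 genes), and KO tumor against LN or spleen came from all 14 (10147 genes). Reads were estimated from the steps of low values in genes with 1 transcript of at least 800 bases, where 93.2 to 96.1% came out whole within 0.1. The smallest depth that did so was taken, so depths and reads are estimates. Because FPKM divide by the library total, higher values of some genes lower those of the rest. Promoter windows came from RefSeq (GRCm38.p6).

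The members and lists were chosen with earlier results of these data known. A difference or its interval is given for all 10 genes in every comparison. List genes named with a test had passed it, at most 4 per list and comparison by smallest p. Other list genes named by level, and the part of all these that is printed, were picked after their values were seen. The nearest genes by pattern are the highest of 3 by Pearson r. Alternatives were another pseudocount, no filter, scaling to equal totals or by median of ratios, other sets of libraries in the fit, quality weights, the replicate number as a block, and leaving out each library.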

Additional observations from a re-analysis of the deposited data

Results flagged for a closer look

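Areg in LN stood at 0.359 FPKM in LN 4 and was listed at 0 in LN 1, 2 and 3, so the whole range of that group is the gap to 1 library. It came to 8 estimated reads. This was the only value far from the rest of its group among the 20 groups of 4 libraries examined (the 10 genes in LN and spleen), and chance gives about 1 in 20.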

How the results depend on the processing

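Of 869 values under alternatives, 830 kept their direction and side of the threshold, 24 changed sign, 11 lost a call and 4 gained one. No value that changed sign was a call. The number of the 10 genes called for WT tumor against spleen, 2, was 1 with only those groups in the fit, with quality weights and with the replicate block, where Areg stayed and Rora was lost (adjusted p = 0.0969, 0.0738 and 0.113). It ran from 1 to 2 when 1 library was left out. The other counts were 5 for WT tumor against LN (4 to 5 with 1 library left out), 0 for LN against spleen and for KO tumor against WT tumor (0 in every alternative), 2 for KO tumor against spleen (2 to 3) and 4 for KO tumor against LN (4 with 1 library left out, 5 with no filter and with quality weights, where Maf was added). For KO tumor against WT tumor, Areg was 0.12 with equal totals and 0.26 with the replicate block, which also turned Il1rl1 to 0.75, Prdm1 to -0.18 and Maf to -0.00017. With 1 library left out, Il1rl1 ran from -0.19 to 0.76 and Penk from -1.04 to 0.0043 for WT tumor against spleen, and Penk from -0.76 to 0.28 against LN and from -0.49 to 0.061 for LN against spleen. For KO tumor against WT tumor, Areg ran from -0.48 to 0.26, Il1rl1 from -0.66 to 0.29, Prdm1 from -0.10 to 0.39 and Maf from -0.0022 to 0.092. For KO tumor, Il1rl1 ran from -0.31 to 0.56 and Gata3 from -0.14 to 0.29 against spleen, and Tnfsf11 from -0.0041 to 0.76 against LN. The cause was not tested.

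Calls over all genes moved more. For WT tumor against spleen 183 became 87 with only those groups and 89 with the block, and for KO tumor against WT tumor 23 became 0 with no filter, 6 with the block and 60 with all 14 libraries. Equal totals moved the median of all genes by -0.15 for WT tumor against LN and 0.13 for KO tumor against WT tumor. Same-numbered libraries did not deviate together (correlations from -0.028 to 0.030). With so few libraries per group this check could miss a shared donor, so whether the numbers pair them is not known. A gene with fewer than 3 reads in a library, as Areg in LN 1, 2 and 3, cannot be told from 0 at this depth.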
